A study of Mus musculus with 41 samples.

Results

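Histone marks were described at 10 adipocyte identity and lipid droplet genes: Pparg, Adipoq, Lep, Retn, Plin1, Plin4, Cidec, Fabp4, Lipe and Pnpla2. They were taken by name from the 21755 protein-coding genes annotated on chromosomes 1 to 19 and X of the mouse genome build mm10, and none was left out. For each gene, peaks were collected that overlapped a promoter, defined as 2 kb to either side of any annotated transcription start site (TSS), or the gene body with 20 kb on either side. The peaks came from CUT&Tag, an assay in which an antibody against a histone post-translational modification (hPTM) guides a transposase that cuts and tags the DNA beside it. In all, 41 samples of 8 mouse cell types gave 24 peak lists, with 8 for lactylation of histone H3 lysine 18 (H3K18la), 5 for H3K27ac, 4 for H3K4me3 and 7 for H3K27me3.

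ADIPO were white adipocyte nuclei of the C57BL/6 strain. The study describes their source as epididymal adipose tissue of 10-week-old female AdipoCre-NuTRAP mice. Epididymal names a male depot, so the sex or the depot is unresolved, and the labels give neither. In NuTRAP mice, cells that express Cre carry a tag on the nuclear envelope, through which their nuclei are caught on streptavidin beads. If Cre is driven by the Adipoq promoter, as the name of the line implies, reads from copies of Adipoq sequence in the transgene cannot be told apart from reads of the gene itself. ADIPO were profiled for H3K18la and H3K27ac, with 2 samples each. The other cell types were gastrocnemius muscle of female C57Bl6/J mice aged 8 to 12 weeks (GAS), primary myoblasts (MB), myotubes differentiated from them for 3 days (MT), bone marrow-derived macrophages cultured for 7 days (BMDM), macrophages sorted from muscle 2 days after hindlimb ischemia (PIM), and E14 embryonic stem cells in serum-LIF (mESC-ser) or 2i-LIF medium (mESC-2i). The treatment given in the labels was control for every sample, and the strain of all cell types other than the stem cells was C57BL/6. For 17 of the 24 lists, 2 replicates had been pooled before peak calling. The other 7 came from 1 sample each: H3K18la in MB and BMDM, H3K27ac in PIM, BMDM and mESC-ser, and H3K27me3 in MB and BMDM. Each cell type and mark thus has 1 list with no replicate spread, and no difference was tested. With ADIPO as 1 of 8 cell types for H3K18la and 1 of 5 for H3K27ac, an exact permutation test over cell types could not give a p-value below 1 in 8 and 1 in 5.

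White adipocytes store triglyceride in a single large lipid droplet and release it as fatty acids when other tissues need fuel. Their identity is set by the nuclear receptor PPARγ, made from Pparg, which works as a partner of the retinoid X receptor and beside C/EBP factors at the genes of fat storage. H3K27ac marks active enhancers and promoters, and H3K4me3 is typical of active promoters. H3K27me3 marks genes held silent by Polycomb proteins, and H3K18la is an acylation that draws on lactate and has been found at active promoters and enhancers.

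The promoters of these genes differed in their CpG content, which is shown for 6 of them because it separates the start sites described next. RefSeq holds promoter sequences (250 bases before to 50 bases after the start, build GRCm38.p6) for 9 of the 10 genes, 13 sequences in all. The letters are printed in lower case, with each CpG dinucleotide in capitals.
Pparg, start of the first exon, chr6:115360894-115361193, plus strand: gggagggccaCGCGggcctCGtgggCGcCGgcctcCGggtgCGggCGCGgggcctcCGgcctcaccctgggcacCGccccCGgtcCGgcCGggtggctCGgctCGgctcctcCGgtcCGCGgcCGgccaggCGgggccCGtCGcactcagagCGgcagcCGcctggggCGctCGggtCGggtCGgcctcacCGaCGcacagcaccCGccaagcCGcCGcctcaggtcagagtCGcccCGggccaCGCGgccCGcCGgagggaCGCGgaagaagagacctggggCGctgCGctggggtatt
Pparg, internal start (Pparg2), chr6:115421816-115422115, plus strand: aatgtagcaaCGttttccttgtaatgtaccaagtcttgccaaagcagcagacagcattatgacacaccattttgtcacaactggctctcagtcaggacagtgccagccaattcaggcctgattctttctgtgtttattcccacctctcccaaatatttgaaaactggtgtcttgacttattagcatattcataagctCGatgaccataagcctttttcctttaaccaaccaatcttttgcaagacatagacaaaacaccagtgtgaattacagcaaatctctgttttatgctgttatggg
Adipoq, chr16:23146286-23146585, plus strand: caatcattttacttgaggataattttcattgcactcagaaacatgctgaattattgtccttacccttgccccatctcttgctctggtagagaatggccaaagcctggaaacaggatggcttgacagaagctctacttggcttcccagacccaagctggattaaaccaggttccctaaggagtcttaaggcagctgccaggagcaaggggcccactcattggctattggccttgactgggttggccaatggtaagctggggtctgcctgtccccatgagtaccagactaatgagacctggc
Plin1, chr7:79732727-79733026, minus strand: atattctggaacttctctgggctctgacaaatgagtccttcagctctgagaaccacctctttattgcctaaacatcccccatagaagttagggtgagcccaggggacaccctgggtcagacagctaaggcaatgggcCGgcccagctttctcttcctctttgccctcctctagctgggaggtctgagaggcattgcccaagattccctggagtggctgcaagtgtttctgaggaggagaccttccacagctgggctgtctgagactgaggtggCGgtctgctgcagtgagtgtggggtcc
Lep, chr6:29059971-29060270, plus strand: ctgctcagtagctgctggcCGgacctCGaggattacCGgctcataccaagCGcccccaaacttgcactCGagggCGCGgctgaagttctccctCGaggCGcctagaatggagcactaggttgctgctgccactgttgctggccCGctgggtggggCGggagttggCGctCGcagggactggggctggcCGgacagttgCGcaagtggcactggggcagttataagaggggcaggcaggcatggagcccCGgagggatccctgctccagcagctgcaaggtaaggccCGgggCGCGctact
Pnpla2, chr7:141454938-141455237, plus strand: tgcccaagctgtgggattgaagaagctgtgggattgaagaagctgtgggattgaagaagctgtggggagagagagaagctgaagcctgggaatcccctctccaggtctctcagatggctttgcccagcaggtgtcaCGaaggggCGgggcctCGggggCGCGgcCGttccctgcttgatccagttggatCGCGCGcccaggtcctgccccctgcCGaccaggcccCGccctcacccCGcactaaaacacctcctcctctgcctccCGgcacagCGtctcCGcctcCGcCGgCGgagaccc
The sequence at the first exon of Pparg held 44 CpG and 80.3% G or C, and 98.1% of the 32619 promoter sequences on these chromosomes held as few or fewer. The Pparg2 start held 2, Adipoq held 0 and Plin1 held 2, against a median of 7 over all promoter sequences. Lep held 19 and Pnpla2 held 18. Of the sequences not printed, Retn held 2, Cidec held 6 and 7 at its 2 starts, Plin4 held 7, and Lipe held 19 and 2. All 5 member sequences with 2 or fewer CpG were overlapped by a peak in ADIPO for both marks, whereas 6.21% of the 7516 such sequences in the table were overlapped by an ADIPO H3K18la peak and 4.15% by an ADIPO H3K27ac peak. The search for 3 motifs covered both strands. TTGCGCAA, a palindrome that C/EBP factors bind, was found in 0.184% of promoter sequences and, among the members, at Lep alone, where its central CpG is among those in capitals. TATAAA was found in 13.7% of promoter sequences and at 1 member sequence, a Pparg start not printed here, and the direct repeat bound by PPARγ with its partner, AGGTCA followed after 1 base by AGGTCA, in 0.0399% and at no member. A match describes these letters only and is not evidence of binding.

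In ADIPO, a peak was called at the promoters of 10 of 10 genes for H3K18la, where 44.7% of all protein-coding genes were called, and of 10 of 10 for H3K27ac, where 46.1% were called. For H3K18la in the other cell types, 19 of 70 combinations of gene and cell type were called. PIM had 6 genes called (37.8% of all genes), GAS 5 (36.1%), MT 2 (34.8%), BMDM 2 (18.5%), mESC-ser 2 (33.4%), mESC-2i 1 (37.8%) and MB 1 (11.1%). ADIPO thus stood apart from the other 7 lists, which ranged from 1 to 6 genes. For H3K27ac, 8 of 40 combinations outside ADIPO were called, with 3 genes in GAS (47.0% of all genes), 3 in PIM (48.8%), 2 in BMDM (34.0%) and 0 in mESC-ser (40.2%). The promoters of Plin1, Lep and Cidec carried H3K18la in ADIPO and in none of the other 7 cell types, which held for 4.54% of all genes. For H3K27ac, 6 genes were called in ADIPO and in none of the other 4 cell types (Adipoq, Plin1, Fabp4, Lep, Cidec and Retn), which held for 2.64% of all genes.

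**Figure D1:**
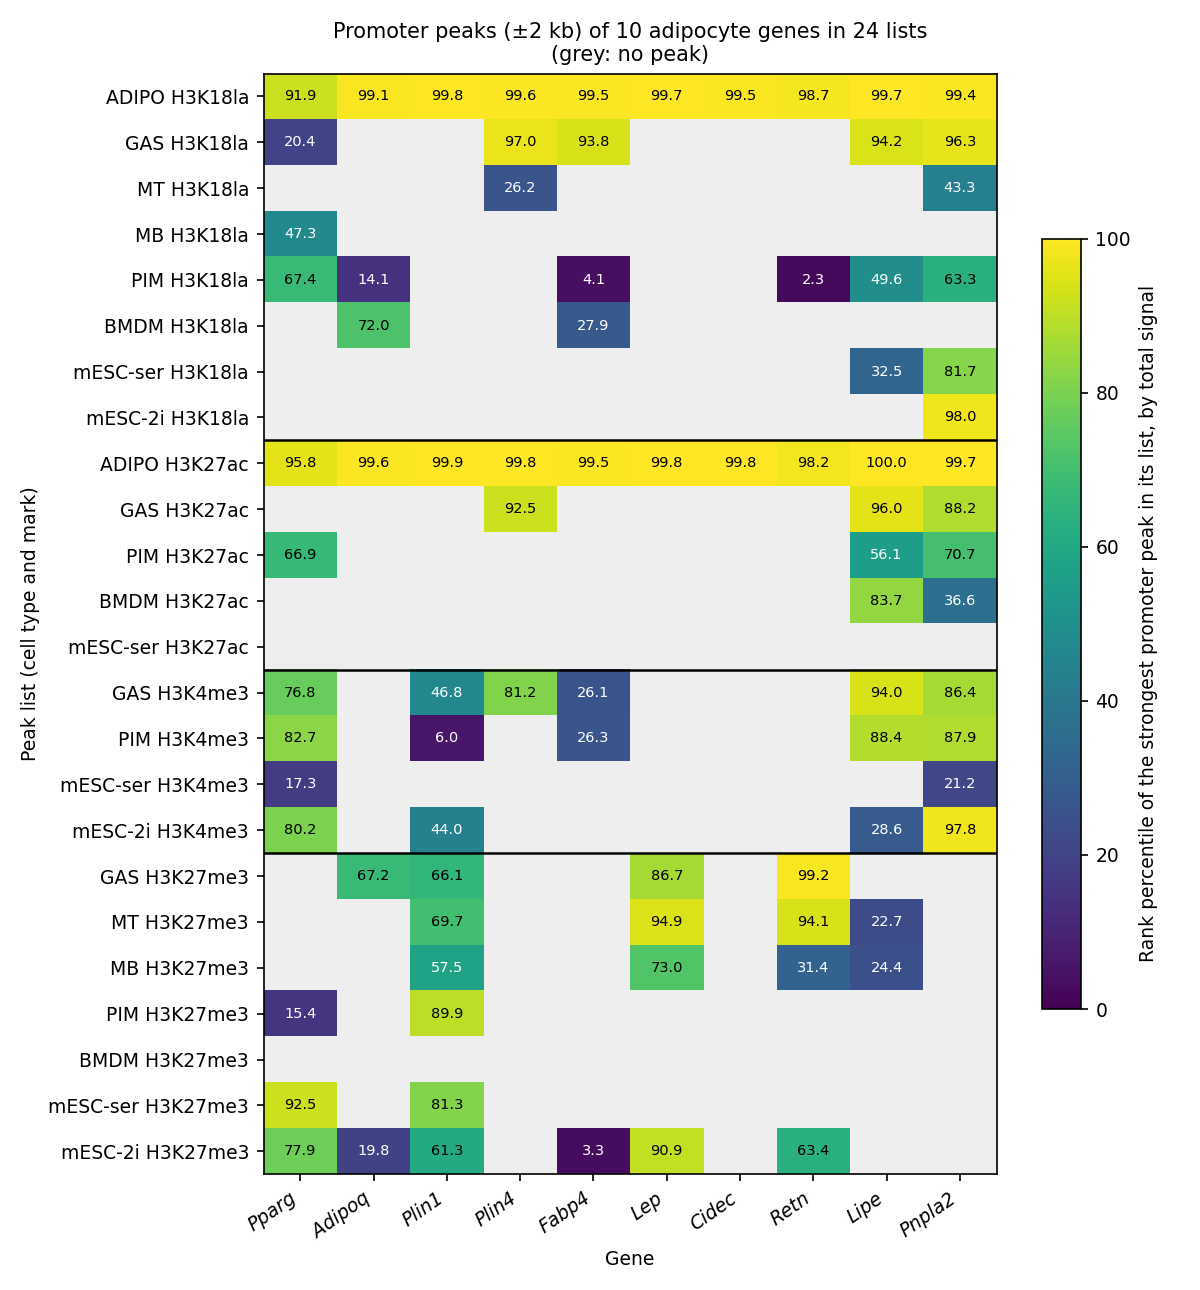
Each cell gives the rank percentile, by total signal within its own list, of the strongest peak at a promoter (±2 kb) of the gene in the column, for the cell type and mark in the row, and grey marks no peak. The 2 ADIPO rows are the only ones filled for all 10 genes, with percentiles of 91.9 or more.

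The ADIPO peaks at these promoters were among the largest of their lists. Within a list, peaks were ranked by total signal, the coverage by fragments added up along the peak, which grows with both its width and its height. The median rank percentile of the 10 genes was 99.5 for H3K18la and 99.7 for H3K27ac, against 58.3 and 64.3 over all genes called in the same lists. Under a stricter rule chosen after the values had been seen, 8 of 10 genes had a promoter peak in the top 1% of the ADIPO H3K18la list, where 0.952% of all genes did, and 8 of 10 in that of H3K27ac, where 0.887% did. The 2 genes below that line were Pparg and Retn for both marks. The difference from other called genes was larger in width than in coverage per base. H3K18la promoter peaks had a median width of 19396 bp, ranging from 7044 to 26303 bp, against 1965 bp over all called genes, and H3K27ac peaks had a median of 14147 bp against 1957 bp. Coverage per base was also higher, at 2.19 times the median peak of the list for H3K18la (1.12 times over all called genes) and 1.87 times for H3K27ac (1.17 times over all called genes).

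**Figure D2:**
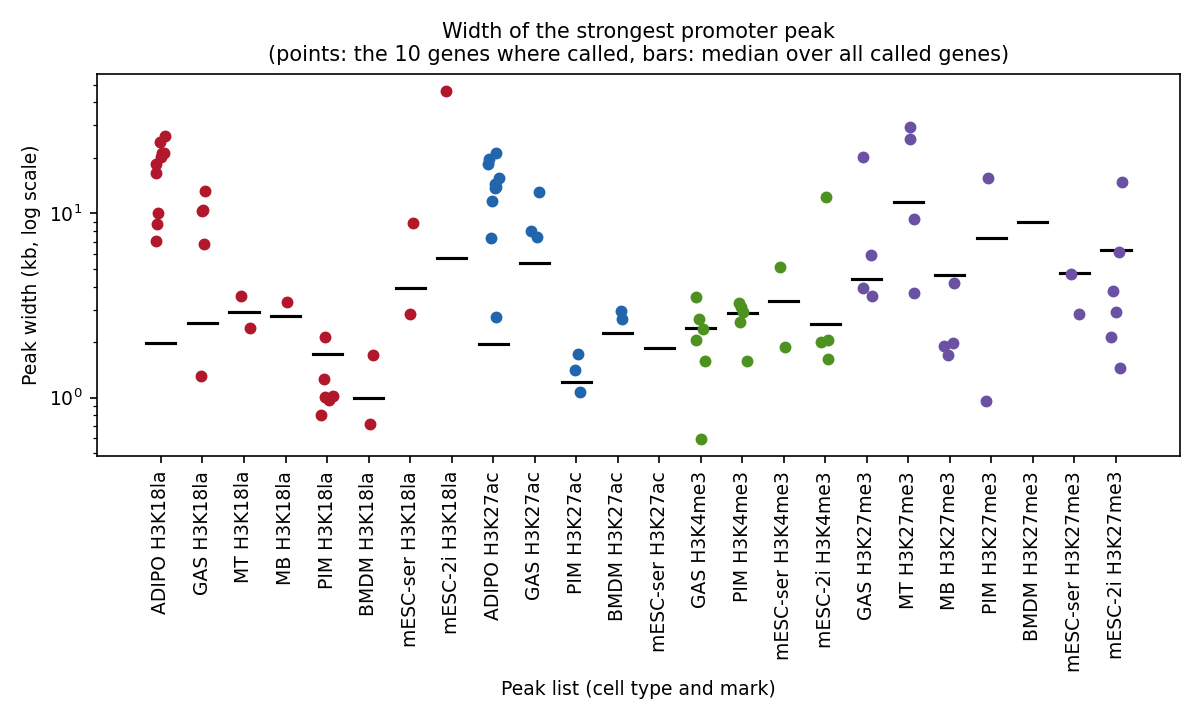
Width in kb, on a log scale, of the strongest promoter peak of each of the 10 genes (points) in every list where one was called, with the median over all called genes as a black bar. The ADIPO H3K18la points, from 7044 to 26303 bp, all lie above their bar at 1965 bp, and so do the ADIPO H3K27ac points, from 2741 to 21142 bp, above 1957 bp.

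Of the bases within 20 kb of these genes, 51.1% lay under an ADIPO H3K18la peak and 41.6% under an ADIPO H3K27ac peak, whereas the windows of all protein-coding genes were covered to 4.42% and 3.32%. A peak in the window was called for 10 of 10 genes in each of these lists (64.3% of all genes for H3K18la and 62.7% for H3K27ac), and for 9 and 7 genes when peaks at promoters of other genes were left out (49.0% and 45.5% of all genes). In the other cell types, H3K18la covered between 2.06% (BMDM, 1.2% over all gene windows) and 13.9% (GAS, 6.87% over all gene windows) of the same bases, and H3K27ac between 3.52% (PIM, 1.72% over all gene windows) and 17.0% (GAS, 12.2% over all gene windows). The peaks that touched these windows, counted whole, held 0.73% of the in-peak signal of the ADIPO H3K18la list, against 0.0267% (MT) to 0.0663% (GAS) in the other 7. For H3K27ac the share was 0.732% in ADIPO and 0.0622% (BMDM) to 0.102% (mESC-ser) in the other 4.

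**Figure D3:**
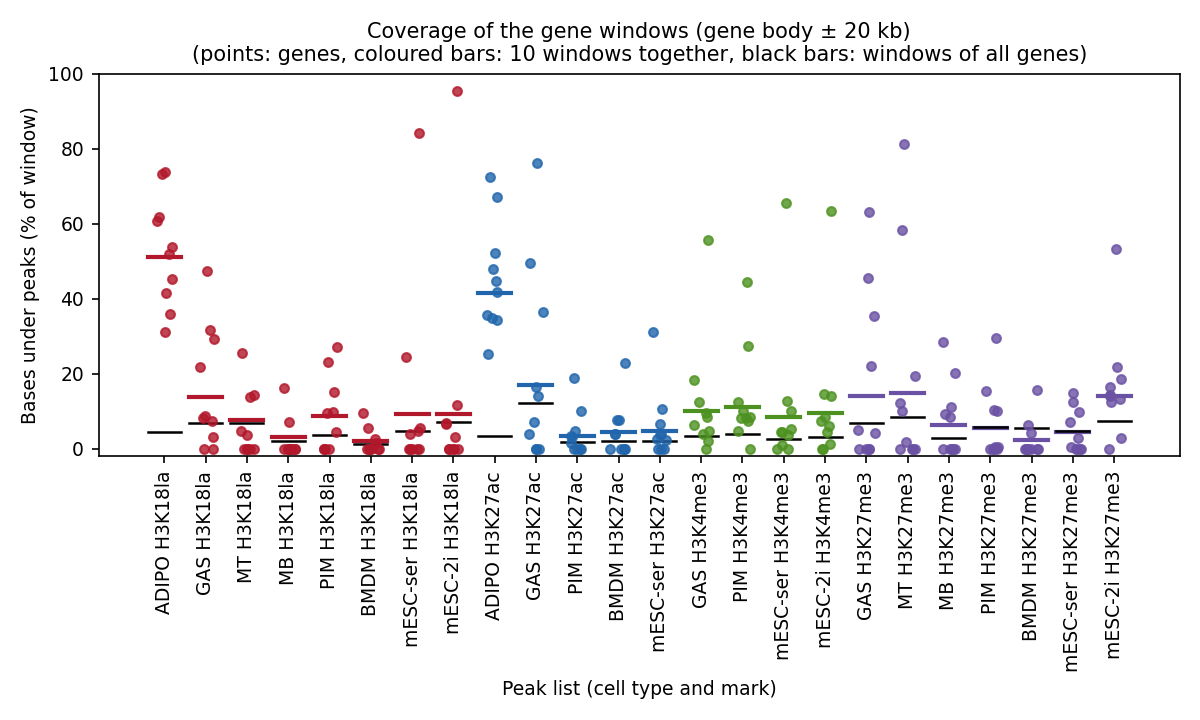
Percent of the window of each gene (gene body with 20 kb on either side) under peaks, by list, with points for genes, coloured bars for the 10 windows together and black bars for the windows of all protein-coding genes. For H3K18la and H3K27ac the ADIPO bars, at 51.1% and 41.6%, lie above those of the other cell types, which reach at most 17.0%.

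Pparg (chr6:115360951-115490399, plus strand) has annotated start sites in 4 places, and they carried different marks. At the CpG-rich start of the first exon, ADIPO had an H3K18la peak of 2861 bp (rank 5332 of 28752) and an H3K27ac peak of 2741 bp (rank 960 of 23089). The same start carried H3K18la in GAS (1307 bp, rank 29312 of 36813) and in PIM (975 bp, rank 10453 of 32066), and H3K4me3 in all 4 cell types profiled for it. It carried H3K27me3 in mESC-ser (4670 bp, rank 1844 of 24436), mESC-2i (2118 bp, rank 5429 of 24613) and PIM (962 bp, rank 13359 of 15798). PIM thus had calls for all 4 marks there, with H3K27ac over 1718 bp (rank 8158 of 24643) and H3K4me3 over 2576 bp (rank 4406 of 25448). Its H3K27me3 call was weak, at percentile 15.4 of its list. In samples of many cells, marks on the same nuclei and marks on different nuclei cannot be told apart, nor can fewer marked cells and less mark per cell.

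The start that lies 61115 bp downstream, which gives the fat-cell form PPARγ2, was different. ADIPO had an H3K18la peak of 7044 bp and an H3K27ac peak of 6710 bp across it, and none of the other 22 lists had a peak within 2 kb. The H3K18la call of MB came from a peak of 3304 bp at a further internal start, 79024 bp into the gene, where the annotated transcript is a retained intron and no ADIPO peak was called. GAS and PIM had a further H3K18la peak near the start at 22748 bp.

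A further feature of Pparg lay at its other end. An ADIPO H3K18la peak of 66428 bp (chr6:115475719-115542146) covered the last 14681 bp of the gene and 51747 bp past it. It was the widest of the 28752 peaks of its list and ranked 3 by total signal, and its coverage per base was at the 98.5 percentile. ADIPO H3K27ac covered 80.4% of the same stretch, split into 10 peaks of which the widest had 17708 bp and ranked 22 of 23089. Smaller H3K18la peaks were called in the stretch in the muscle cell types, with 28.6% covered in MT, 22.3% in GAS and 8.24% in MB, and in the macrophages, with 8.81% in PIM and 2.79% in BMDM. H3K27ac covered 20.8% of it in GAS, 3.36% in BMDM and 1.66% in PIM. No H3K18la or H3K27ac peak was called there in the stem cells. H3K27me3 covered 23.4% of it in PIM, 16.7% in mESC-2i and 10.7% in BMDM. An H3K18la peak of 14944 bp (rank 880) came directly before it in ADIPO. The wide peak touches no promoter of a protein-coding gene and 1 of a long noncoding RNA, Gm36355.

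**Figure D4:**
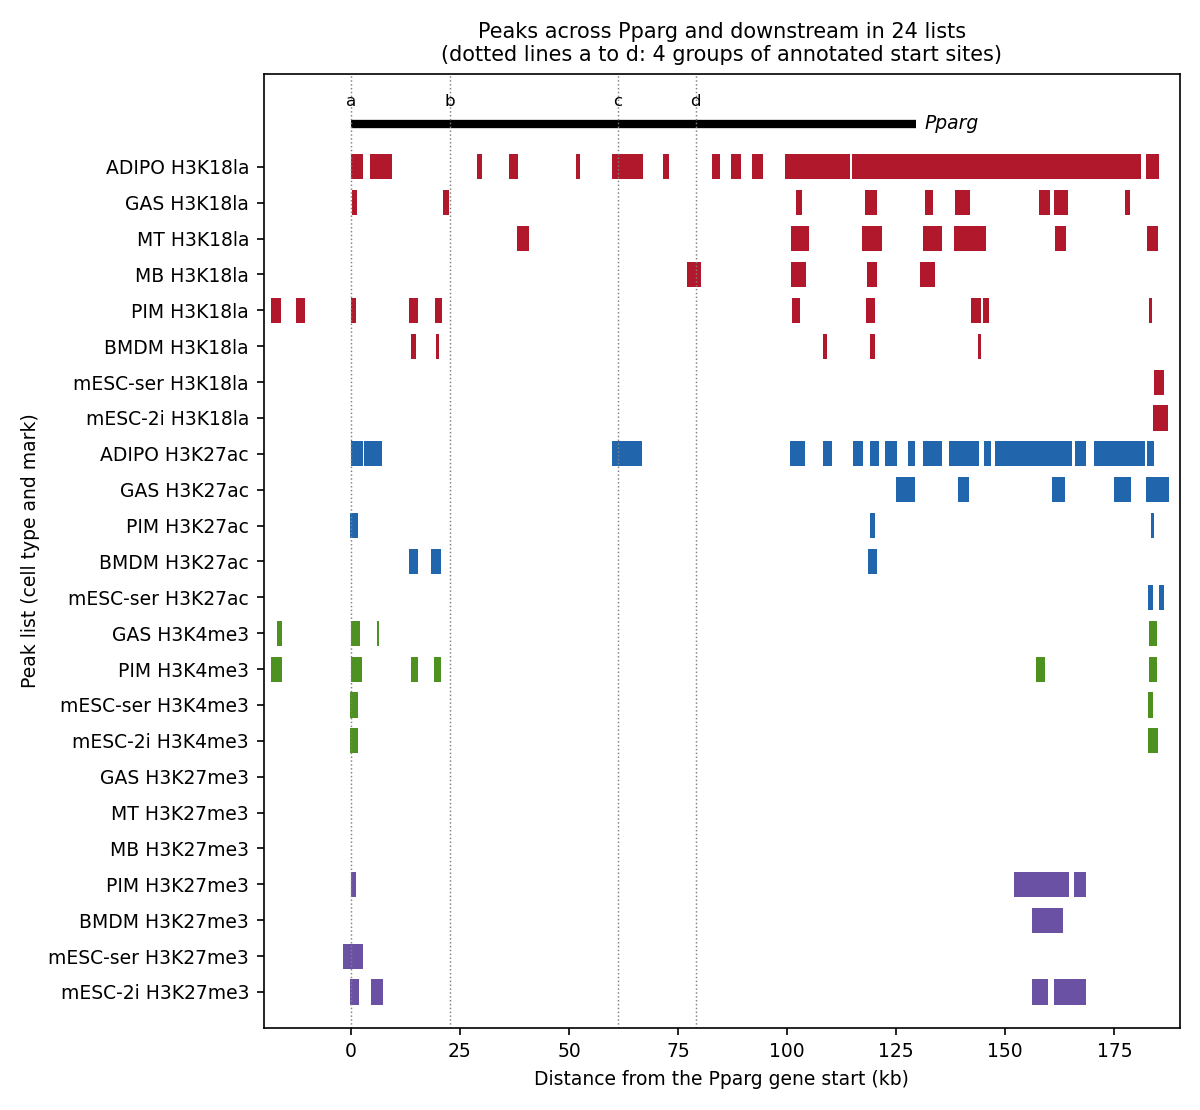
Peaks of all 24 lists (rows, coloured by mark) across Pparg and the stretch past its end, by distance from the gene start in kb, with the gene as a black bar and its 4 places of annotated start sites as dotted lines. At line c, 61115 bp into the gene, only the ADIPO rows have a peak, and the long block at the end of the gene in the top row is the peak of 66428 bp.

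Adipoq, Lep and Retn encode hormones that fat cells secrete. Adipoq (chr16:23146536-23158028), which encodes adiponectin, had an ADIPO H3K18la peak of 10042 bp (rank 246) and an H3K27ac peak of 11712 bp (rank 95). Its H3K18la peak was the densest of the group, with 3.08 times the coverage per base of the median peak in its list. The macrophages also had an H3K18la call at this promoter, but the peaks reached only its upstream edge. They had 1262 bp in PIM (rank 27538 of 32066), from -2316 to -1055 bp of the start, and 1693 bp in BMDM (rank 5485 of 19571), from -3297 to -1605 bp. A further H3K18la peak lay between 7 and 12 kb upstream in ADIPO (4260 bp), PIM (3043 bp) and BMDM (1649 bp). H3K27me3 was called at Adipoq in GAS (3568 bp) and mESC-2i (3794 bp).

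Lep (chr6:29060220-29073877) encodes leptin, the hormone that signals fat stores to the brain. Its ADIPO H3K18la peak had 24503 bp (rank 79) and its H3K27ac peak 19682 bp (rank 48), beginning at -634 and -1563 bp of the start and running past the end of the gene. Behind them followed an H3K18la peak of 9333 bp (rank 303) and an H3K27ac peak of 11248 bp (rank 145). No other cell type had H3K18la, H3K27ac or H3K4me3 at the Lep promoter. H3K27me3 was called there in 4 of 7 lists, over 29549 bp in MT (rank 950 of 18566), 14820 bp in mESC-2i, 5963 bp in GAS and 4175 bp in MB. Together with peaks of 10281 and 8676 bp further downstream, H3K27me3 in MT covered 81.3% of the Lep window, where ADIPO H3K18la covered 73.2%.

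Retn (chr8:3655770-3660110), which encodes resistin, was covered in ADIPO by both marks. It had H3K18la over 8719 bp (rank 387) and H3K27ac over 7382 bp (rank 406), both over the whole gene. H3K27me3 was called in the same 4 cell types as at Lep, with 25208 bp in MT and 20100 bp in GAS, where the peak ranked 278 of 36400. PIM had an H3K18la peak of 1023 bp at Retn, which was among the weakest of its list (rank 31327 of 32066), and 6 further H3K18la peaks in the window, one of them of 3130 bp (rank 7771) over the end of the gene. Together they covered 27.2% of the Retn window and 31.0% of the gene body, and H3K27ac in PIM covered 12.8% of the gene body.

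Plin1, Plin4 and Cidec encode proteins on the droplet surface. Plin1 (chr7:79720218-79732903, minus strand) encodes perilipin 1, which guards the droplet against lipases. It had the widest H3K18la promoter peak of the group, 26303 bp (rank 54), reaching from -11039 bp of the start to past the gene end and over promoters of the neighbours Kif7, Pex11a and Wdr93. The H3K27ac peak had 18427 bp (rank 31). H3K4me3 was called at Plin1 in GAS, PIM and mESC-2i and H3K27me3 in 6 of 7 lists, but the strongest of these peaks lay at an internal start 9615 bp into the gene, on the side of Kif7. At the main Plin1 start, no H3K4me3 peak was called and H3K27me3 was called in GAS, MB and mESC-2i.

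Plin4 (chr17:56100591-56109803, minus strand), another perilipin, was marked in muscle as well as in fat. ADIPO had H3K18la over 21151 bp (rank 106) and H3K27ac over 14402 bp (rank 42), and GAS had H3K18la over 10442 bp (rank 1095 of 36813), H3K27ac over 8022 bp (rank 2633 of 35286) and H3K4me3 over 2679 bp. MT had an H3K18la peak of 2389 bp, which ranked 25078 of 33991. The ADIPO H3K18la peak also covered a promoter of the neighbouring perilipin gene Plin5. Cidec (chr6:113424634-113435760, minus strand) encodes a protein that fuses droplets into the single large one. It had H3K18la over 20311 bp (rank 149) and H3K27ac over 13759 bp (rank 54) in ADIPO and was the only member without a promoter peak in any of the other 22 lists. The H3K27ac and H3K4me3 peaks of those lists in its window lay at the promoters of Jagn1 and Rpusd3 on either side.

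Fabp4 (chr3:10204088-10208576, minus strand) encodes a carrier of fatty acids in adipocytes and macrophages. Its ADIPO peaks had 18481 bp for H3K18la (rank 145) and 15534 bp for H3K27ac (rank 125), and each was the only peak in the window, with no promoter of another protein-coding gene under it. H3K18la was also called in GAS (10305 bp, rank 2277), PIM (802 bp, rank 30762 of 32066) and BMDM (717 bp, rank 14121 of 19571). The GAS promoter peak exceeded 10 kb like that of ADIPO, while those of the macrophages were under 1 kb. PIM had a further H3K18la peak of 3500 bp upstream, from -6264 to -2765 bp of the start (rank 6924), within the span of the ADIPO peak. No H3K27ac peak was called at Fabp4 outside ADIPO, and H3K4me3 was called in GAS (596 bp) and PIM (3245 bp).

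The remaining members encode the lipases that break down stored triglyceride, and their promoters were marked in several cell types. Pnpla2 (chr7:141455198-141460743), which encodes the first lipase of the pathway, had promoter H3K18la in 6 of 8 cell types, H3K27ac in 4 of 5, H3K4me3 in 4 of 4 and H3K27me3 in 0 of 7. In ADIPO its peaks had 16522 bp for H3K18la (rank 182) and 13893 bp for H3K27ac (rank 76), and in mESC-2i H3K18la had 46153 bp (rank 392 of 19908). The window of Pnpla2 also holds the promoters of Rplp2, Pidd1, Cracr2b, Cd151, Polr2l, Tspan4 and Slc25a22, so its coverage is shared with these genes, and the mESC-2i peak ran from -22734 to 23418 bp of the start.

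Lipe (chr7:25379527-25398710, minus strand), which encodes hormone-sensitive lipase, had an ADIPO H3K18la peak of 21173 bp (rank 99) and an H3K27ac peak of 21142 bp that ranked 12 of 23089, the highest rank of any member's promoter peak in either ADIPO list. They began 1559 and 1541 bp inside the gene, before the CpG-rich start at 2331 bp, and ran past the gene end. Lipe also carried H3K18la in GAS (6837 bp, rank 2149), PIM (1005 bp) and mESC-ser (2837 bp), and H3K27ac in GAS (13112 bp, rank 1424), BMDM (2958 bp) and PIM (1076 bp). Within 2 kb of the start furthest upstream, H3K18la was called in ADIPO only, and that peak did not reach the start itself. H3K27ac was called there in ADIPO, GAS and BMDM, and H3K4me3 in GAS and PIM.

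**Figure D5:**
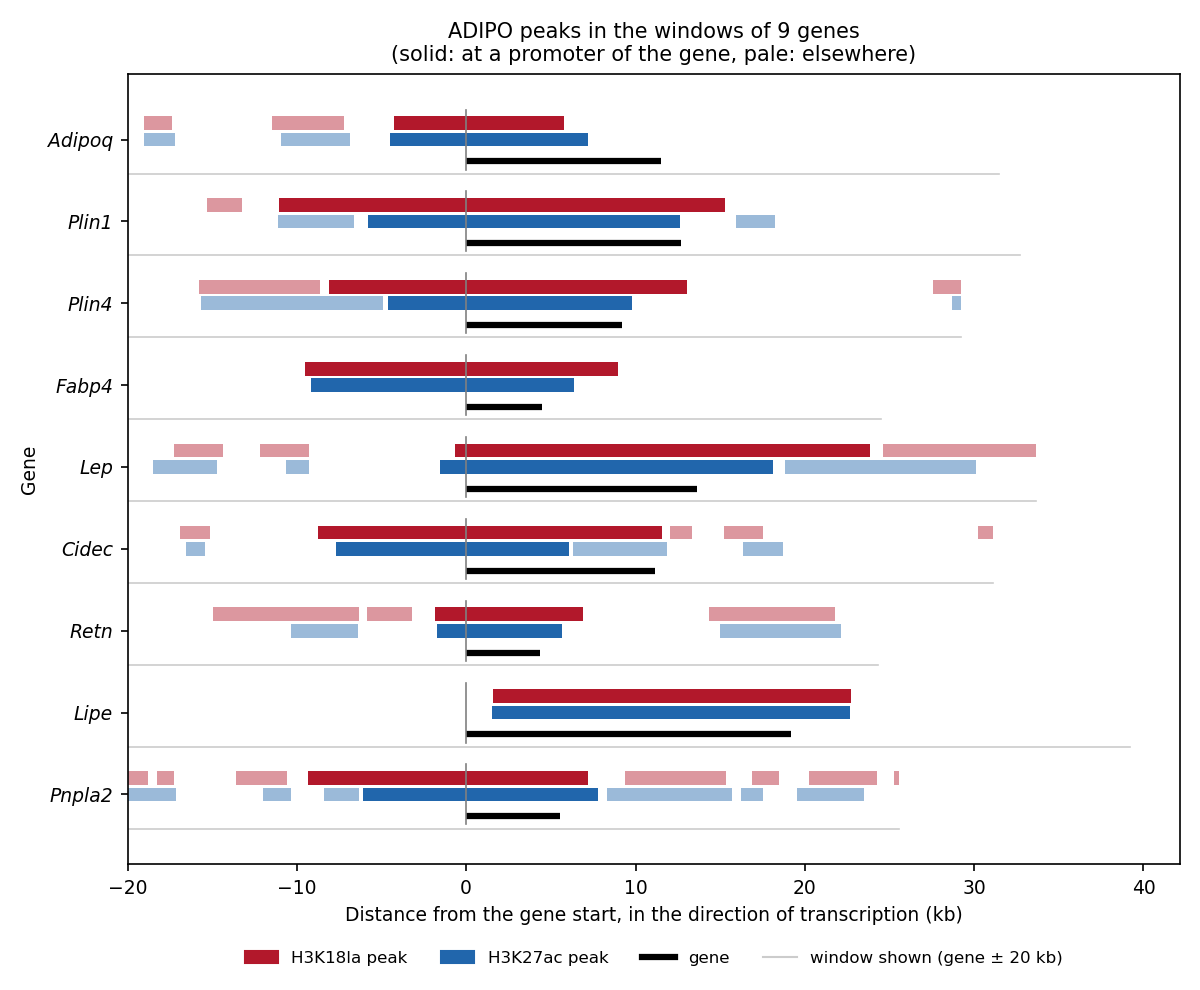
ADIPO peaks of H3K18la (red) and H3K27ac (blue) in the windows of the 9 members other than Pparg, by distance from the gene start in kb along the direction of transcription, solid where they overlap a promoter of the gene and pale elsewhere. Peaks of H3K18la cover at least 50.5% of every gene body shown and largely coincide with those of H3K27ac, and at Lipe the edges of the 2 peaks differ by less than 50 bp.

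H3K18la and H3K27ac covered much the same bases at these genes in ADIPO. The Jaccard index, the bases under both marks over the bases under either, had a median of 0.773 over the 10 windows, against 0.484 over the 14840 gene windows with a peak of either mark. The index was highest at Lipe (0.997), Adipoq (0.85) and Fabp4 (0.841) and lowest at Retn (0.651) and Pparg (0.532). H3K18la and H3K27ac covered 51.1% and 41.6% of the member windows and 4.42% and 3.32% of all gene windows. Windows of like coverage were not compared, so the part of coverage in the index was not tested. At these genes, 94.0% of the H3K27ac bases lay within H3K18la peaks, and 76.5% of the H3K18la bases lay within H3K27ac peaks. Over the whole lists these shares were 79.1% and 56.2%. H3K18la covered more bases than H3K27ac in the windows of 9 of 10 members, as it did in 64.4% of all windows with either mark, and Adipoq was the exception. The surplus was largest at Pparg, with 76813 bp under H3K18la and 43038 bp under H3K27ac, and at Retn, with 27417 and 18493 bp. In the cell types other than ADIPO that had both marks, the median index over member windows with a peak was 0.271 in mESC-ser, 0.192 in PIM, 0.149 in GAS and 0.0473 in BMDM, against 0.233, 0.266, 0.193 and 0.147 over all windows with a peak in the same order. The member windows thus had a lower median than all windows in PIM, GAS and BMDM and a higher one in ADIPO and mESC-ser.

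The bodies of 7 members were covered by H3K18la to 100% in ADIPO (Plin1, Plin4, Fabp4, Lep, Cidec, Retn and Pnpla2). These genes are 4341 (Retn) to 13658 bp (Lep) long. The share of all genes with bodies so covered was not computed, so how unusual this count is cannot be told. Lipe was covered to 91.9%, Adipoq to 50.5% and the much longer Pparg to 43.9%. The position of the highest coverage within the promoter peak differed between the marks. It lay within 200 bp of a TSS of the gene for 7 of 10 members in the H3K27ac list and for 2 of 10 (Cidec and Retn) in the H3K18la list, a distance chosen after the values had been seen. Over all called genes the shares were 58.7% for H3K27ac and 49.9% for H3K18la. At Pparg the strongest promoter peak, and so the one compared, lay at the Pparg2 start for H3K18la and at the first exon for H3K27ac. The median distance was 75 bp for H3K27ac and 1924 bp for H3K18la, against 130 and 202 bp over all called genes. At Lep, for example, the H3K27ac maximum lay 73 bp from the start and the H3K18la maximum 15610 bp from the nearest start. Maxima of such wide peaks can lie anywhere under them, and with 1 pooled list per mark their spread is unknown.

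The other 2 marks were profiled in cell types other than ADIPO. H3K4me3 was called for 6 members in GAS (64.2% of all genes), 5 in PIM (59.4%), 4 in mESC-2i (61.8%) and 2 in mESC-ser (48.8%). Pparg and Pnpla2 were called in all 4 of these lists, and Adipoq, Lep, Cidec and Retn in none. H3K27me3 was called for 6 members in mESC-2i (22.5% of all genes), for 4 each in GAS (23.9%), MT (20.1%) and MB (12.5%), for 2 each in mESC-ser (27%) and PIM (26.4%), and for none in BMDM (19.2%). The muscle cell types shared Plin1, Lep and Retn, and MT had the widest of these peaks at each of the 3 genes. Plin4, Cidec and Pnpla2 had no H3K27me3 call at the promoter in any list. The mESC-2i peaks ranked from percentiles 3.28 (Fabp4) and 19.8 (Adipoq) up to 90.9 (Lep). When every H3K27me3 list was reduced to the called bases of the smallest, 1 member stayed called in mESC-2i (Lep) and 1 in PIM. MB then had 4, GAS, MT and mESC-ser had 2 each, and the shares of all genes were not computed. Over the CpG-rich promoter sequences printed above, that of Pparg was overlapped by H3K4me3 and by H3K27me3 in both stem cell types and that of Pnpla2 by H3K4me3 in mESC-2i, while Lep, with 19 CpG in its promoter sequence, carried H3K27me3 and no H3K4me3 in mESC-2i and neither mark in mESC-ser.

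Further genes of the adipocyte program, chosen with earlier results of these data known, were read in the same way. Of 36 such genes, 33 had promoter H3K18la and 34 promoter H3K27ac in ADIPO, where 44.7% and 46.1% of all genes were called, and 9 of 36 had an H3K18la peak in the top 1% of the list, as 0.952% of all genes did. In GAS, 27 of the 36 carried H3K18la (36.1% of all genes), and in PIM 23 (37.8% of all genes). All 8 regulators were called in ADIPO, among them Cebpa, a partner of PPARγ in fat cell formation, and Srebf1, a regulator of lipid synthesis (percentile 99.8). Ebf2, a factor of the adipocyte lineage, was called for H3K18la in ADIPO alone (percentile 97.1) and carried H3K27me3 in 7 of 7 other cell types. Of the droplet genes 5 of 7 were called, including Plin2 (95.6) and Plin5 (99.6), whose H3K18la peak is that of the member Plin4 described above. Cidea and Cideb, relatives of Cidec, had no H3K18la promoter peak in ADIPO, and Cidea had a low-ranking H3K27ac peak (percentile 32.7).

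All 6 genes that control lipolysis carried H3K18la in ADIPO, such as G0s2, an inhibitor of the lipase made from Pnpla2 (percentile 99.6), and Adrb3, the adrenergic receptor of fat cells (99.3). Pde3b, whose enzyme lets insulin restrain lipolysis, was called for H3K18la in ADIPO alone (72.7). All 7 genes of lipid and glucose uptake were called, including Lpl (97.7) and Slc2a4, the insulin-responsive glucose transporter (97.3), and each was also called in GAS. All 5 further genes of secreted proteins were called. Cfd, which encodes the adipokine adipsin (99.7), and Rbp4, which encodes the retinol carrier (70.5), were called for H3K18la in ADIPO alone, while Agt (97.7) was also called in GAS and Nampt (66.4) in 6 other cell types. Among the receptors, Adipor1 (33.7) and Adipor2 (99.2) were called, and the leptin receptor gene Lepr carried neither H3K18la nor H3K27ac in any cell type.

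The genes whose promoter ranks over the 24 lists were most like the mean of the 10 members, by Spearman's rho with 0 where no peak was called, were Apex2 and Pfkfb1 (both 0.822), Rnf144b (0.806), Vav1 (0.802) and Sp140 (0.758), with Sp110, Cyp2d22, Nlrc5, Cyp27a1 and Tap2 following at 0.748 to 0.753. The lists of a cell type share its cells and those of a mark its antibody, and these correlations are a description.

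The label of ADIPO was set beside markers of other cells that adipose tissue could hold, also chosen with earlier results of these data known. They are to be read beside the 44.7% of all genes called for H3K18la in ADIPO. For H3K18la, 3 of 8 macrophage markers were called in ADIPO (Cd68, Cd14 and Spi1) but not Csf1r, Adgre1, Ptprc, Fcgr1 or Itgam, which were called in both macrophage lists. None of 6 endothelial markers was called, 2 of 6 fibroblast markers were (Dcn at percentile 94.2 and Col1a1 at 45.6), and 1 of 4 mesothelial markers was (Wt1). Of 7 muscle markers only Acta1 was called and of 5 stem cell markers none. GAS, a whole tissue, had H3K18la at 6 of 7 muscle, 6 of 6 endothelial, 5 of 6 fibroblast and 2 of 8 macrophage markers, where 36.1% of all genes were called, and lacked it at Adipoq, Plin1, Lep, Cidec and Retn. The part of other cells in the GAS values of Pparg, Plin4, Fabp4, Lipe and Pnpla2 was not tested.

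Lists differed in size. H3K18la lists held 13550 (MB) to 36813 (GAS) peaks with median widths of 916 (BMDM) to 4595 bp (mESC-2i), and ADIPO, with 28752 peaks of 1883 bp, lay within both ranges. Sequencing depth cannot be read from the lists, and the read numbers that the study gives per sample were not used here. A list of few peaks can miss a weak promoter. When every list was reduced by total signal to the called bases of the smallest list of its mark, ADIPO still had 10 of 10 members called for both marks, where 4.99% of all genes were called for H3K18la and 19% for H3K27ac. The other cell types then had 5 of 70 combinations for H3K18la (6.39% over all genes) and 5 of 40 for H3K27ac (28.9% over all genes). The number of members called in ADIPO alone was 6 instead of 3 for H3K18la (2.18% of all genes) and 7 instead of 6 for H3K27ac (1.94% of all genes).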

How the data were processed

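The authors trimmed reads with Trim Galore 0.6.6, aligned them to mm10 with Bowtie2 2.4.4, made coverage tracks with SAMtools 1.13 and bedtools 2.30, merged the tracks of biological replicates, and called peaks with SEACR 1.3 in stringent mode, keeping the top 1%. Duplicate removal is not given in the sources used here. Each of the 24 deposited peak lists holds, per peak, the total signal (summed fragment coverage) and the maximum signal. Signal was not scaled for depth, so ranks were taken within a list only. SEACR reports 1 block for adjoining covered bases, so widths depend on depth and on how close neighbouring peaks lie. Whole stem cells were used, and nuclei of all other cell types. Stem cell lists for H3K27me3 and H3K4me3 that name no medium were taken as mESC-ser.

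Peaks on chromosomes 1 to 19 and X were joined to GENCODE M21 genes. An overlap of 1 bp counted, and the strongest promoter peak of a gene was the one with the largest total signal. Python 3.11.15, numpy 2.4.6, pandas 2.3.3 and scipy 1.17.1 were used, figures were drawn with matplotlib 3.10.9, and the overlap code was checked on simulated peaks with bedtools 2.31.1. The members, the 36 related genes and the marker lists were chosen with earlier results of these data known. Named genes were all members, the related genes called in ADIPO alone for H3K18la or not called in ADIPO, up to 2 others per list, and the 10 genes most alike in rank. Alternatives changed the promoter width, the start sites, the overlap, the list length, the flank and the ranking.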

Additional observations from a re-analysis of the deposited data

How the results depend on the processing

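Of 96 values under alternative settings for 19 results, 68 stayed near the reported value, which for a count meant within 1.5 times it and for a percentage or percentile within the narrow exact binomial interval over the bases or peaks counted. The other 28 are given here. The count of 10 of 10 members called at the promoter in ADIPO held for both marks under each of the 7 alternatives run. The number called in ADIPO alone moved from 3 to 6 for H3K18la (Pparg, Plin1, Lep, Cidec, Retn and Lipe) and from 6 to 7 for H3K27ac (Plin4 in addition) when all lists of a mark were reduced to equal bases. Under the other 6 settings it was 6 for H3K27ac, and for H3K18la 3 or 4, with Plin1, Lep and Cidec joined by Adipoq at a half-width of 1 kb or less or an overlap of at least 1 kb, by Retn with the 10000 strongest peaks, and by Lipe with the gene start as the only TSS, a setting chosen after seeing the data. Outside ADIPO, the 10000 strongest peaks left 8 promoter calls for H3K18la (19 reported) and 11 for H3K4me3 (17 reported). Lists of equal bases left 5 for H3K18la, 5 for H3K27ac (8 reported) and 12 for H3K27me3 (22 reported). For peaks anywhere in the window outside ADIPO, a flank of 0 kb gave 19 for H3K18la (35 with 20 kb), 12 for H3K27ac (25), 17 for H3K4me3 (34) and 25 for H3K27me3 (41), and a flank of 5 kb gave 26 for H3K27me3. The 10000 strongest peaks gave 19 for H3K18la, and peaks at no other gene's promoter gave 15 for H3K27ac, 20 for H3K4me3 and 24 for H3K27me3. In ADIPO the median rank percentile was 98 (H3K18la) and 98.5 (H3K27ac) by maximum signal, and 95.5 and 95.3 by signal per base. Window coverage in ADIPO was 63.9%, 64.5% and 35.9% for H3K18la and 51.4%, 52.3% and 29.8% for H3K27ac with flanks of 0, 5 and 50 kb, and 47.7% for H3K18la when its list was reduced to the bases of H3K27ac. The summed Jaccard index was 72.9% with the settings used above, 76.3% with that reduction, and 76.9% and 74.6% with flanks of 0 and 5 kb. No paired analysis was possible and no replicate could be left out, because replicates were pooled before peak calling or, for 7 lists, there was 1 sample.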
